A study of Mus musculus with 20 samples.

Results

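The histone cluster genes described here are the 38 genes, of 19607 named on the array, whose platform symbol begins with Hist1h, Hist2h, Hist3h or Hist4h. They were taken by symbol, and the list was chosen with earlier results of these data known. They comprise 5 linker histone (H1) genes, 10 H2A, 8 H2B, 5 H3 and 10 H4 genes, and 29 of them lie in the Hist1 cluster, 6 in Hist2, 2 in Hist3 and 1 in Hist4. Their values rest on 56 probe sets that name a single gene, with 26 genes covered by 1 probe set, 6 by 2 and 6 by 3. All values below are log2 signals, in which a difference of 1 is a doubling if the log base is 2, which no source used here states.

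RNA was measured on 20 whole-transcript arrays of cells from C57BL/6 mice, in a study of what the loss of the transcriptional repressor Gfi1 changes in irradiated thymocytes and in thymic tumours. Thymocytes were untreated (2 arrays of WT and 2 of Gfi1 KO mice) or irradiated (3 and 3). The sources used here do not give the KO allele of the thymocyte donors, the radiation dose or the time after it. Tumour mice carried floxed Gfi1 alleles, without Cre (WT) or with Mx1-Cre (KO), and all had been given the mutagen ENU and, once a mediastinal tumour was seen, pIpC, which switches on Mx1-Cre and also induces interferon in mice without it. There were 3 WT and 3 KO arrays of ENU tumours, and 2 and 2 of tumours from mice that also carried a Notch transgene (Notch tumours). No label says whether a group's arrays are of different mice, and the p-values may therefore measure technical spread only.

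Most genes in these clusters are replication-dependent. Their short, intronless transcripts accumulate in S phase, end in a stem-loop in place of a poly(A) tail, and are degraded when DNA synthesis stops. Variant histones such as H2afz and H3f3b are encoded elsewhere by polyadenylated transcripts made through the cell cycle. Some cluster genes, among them Hist1h2bc and Hist2h2be, are also known to give polyadenylated transcripts in cells that have stopped dividing, and Hist1h1t and Hist1h2aa are known for expression in the testis. Thymocytes divide in bursts as they mature and then rest, and they are very sensitive to radiation.

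Promoter windows of 300 bases, from 250 before the annotated start to 50 after it, were found in RefSeq tables of assembly GRCm38.p6 for 32 of the 38 genes. No window was printed or searched for Hist1h2bc, Hist2h2be, Hist3h2bb, Hist1h3a, Hist1h3f and Hist2h4. The 3 stretches shown are the 160 bases before the start of the H2A gene Hist1h2ac, the linker histone gene Hist1h1e and the H2B gene Hist1h2bg, which fell after irradiation in both genotypes and in WT ENU tumours against thymocytes. Capitals mark matches to the octamer (ATTTGCAT or, on the other strand, ATGCAAAT), the CCAAT box (CCAAT or ATTGG), the TATA box (TATAAA or TTTATA) and the H1 box (AAACACA or TGTGTTT). No match overlaps another in these windows.
Hist1h2ac, chr13:23683960-23684119, minus strand: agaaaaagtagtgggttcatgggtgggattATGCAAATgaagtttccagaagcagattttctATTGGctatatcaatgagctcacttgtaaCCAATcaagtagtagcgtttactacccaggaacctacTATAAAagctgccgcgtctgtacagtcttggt
Hist1h2bg, chr13:23571240-23571399, plus strand: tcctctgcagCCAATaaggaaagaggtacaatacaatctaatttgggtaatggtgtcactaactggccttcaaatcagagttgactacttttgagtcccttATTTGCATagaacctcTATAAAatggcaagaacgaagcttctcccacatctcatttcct
Hist1h1e, chr13:23622559-23622718, minus strand: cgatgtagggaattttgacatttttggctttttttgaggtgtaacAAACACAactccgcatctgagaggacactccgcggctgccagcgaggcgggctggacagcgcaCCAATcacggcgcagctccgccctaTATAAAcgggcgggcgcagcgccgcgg

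The octamer, a site bound by POU factors such as Oct-1 (Pou2f1), begins at position -130 from the start of Hist1h2ac and at -59 from that of Hist1h2bg. It was found in 10 of the 32 histone windows (31.2%), 6 of 10 H2A and 4 of 5 H2B, and in none of the H1, H3 or H4 windows, against 1.74% of all 32851 windows. The H1 box, which begins at -115 from the start of Hist1h1e, was in 7 windows (21.9%), 4 of them among the 5 H1 genes, against 7.18% of all windows. CCAAT was in 26 windows (81.2%) against 37.4%, with only 3 of 9 H4 windows holding it, and TATAAA was in 20 (62.5%) against 13.6%. The windows of the divergent neighbours Hist1h2ae and Hist1h2bg share 279 bases on opposite strands, so their motif matches are not independent. A match is a run of letters and shows no binding.

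Of the 38 genes, 34 lay above the 40th percentile of all genes on at least 2 thymocyte arrays and were tested there, and 34 were tested over all 20 arrays. Hist1h1t, Hist1h2ag, Hist1h3a and Hist1h3f did not pass in any fit, and Hist1h2ac, Hist1h2ai and Hist1h4a also did not pass among tumours, which left 31. Untreated thymocytes had the highest histone signals: on the 2 WT arrays 38 and 36 of the 38 genes lay above their own mean over the 20 arrays, and on the 2 KO arrays 37 and 36. The median of the centred histone values was 0.49 to 0.58 in WT and 0.36 to 0.46 in KO untreated thymocytes. After irradiation it was 0.00, 0.13 and 0.29 in WT and 0.11, 0.18 and -0.33 in KO. KO irradiated array 2 stood apart from its group, with 8 of 38 genes above their mean against 29 on each of the others.

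In WT ENU tumours the median histone value was 0.05, -0.06 and -0.06, and in ENU tumours labelled KO it was -0.27, -0.29 and -0.77. WT Notch tumours were at -0.26 and -0.02, and KO Notch tumours at 0.01 and -0.49. The lowest arrays of these groups, ENU tumour 1 labelled KO and KO Notch tumour 2, had 1 and 3 of 38 genes above their mean.

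**Figure D1:**
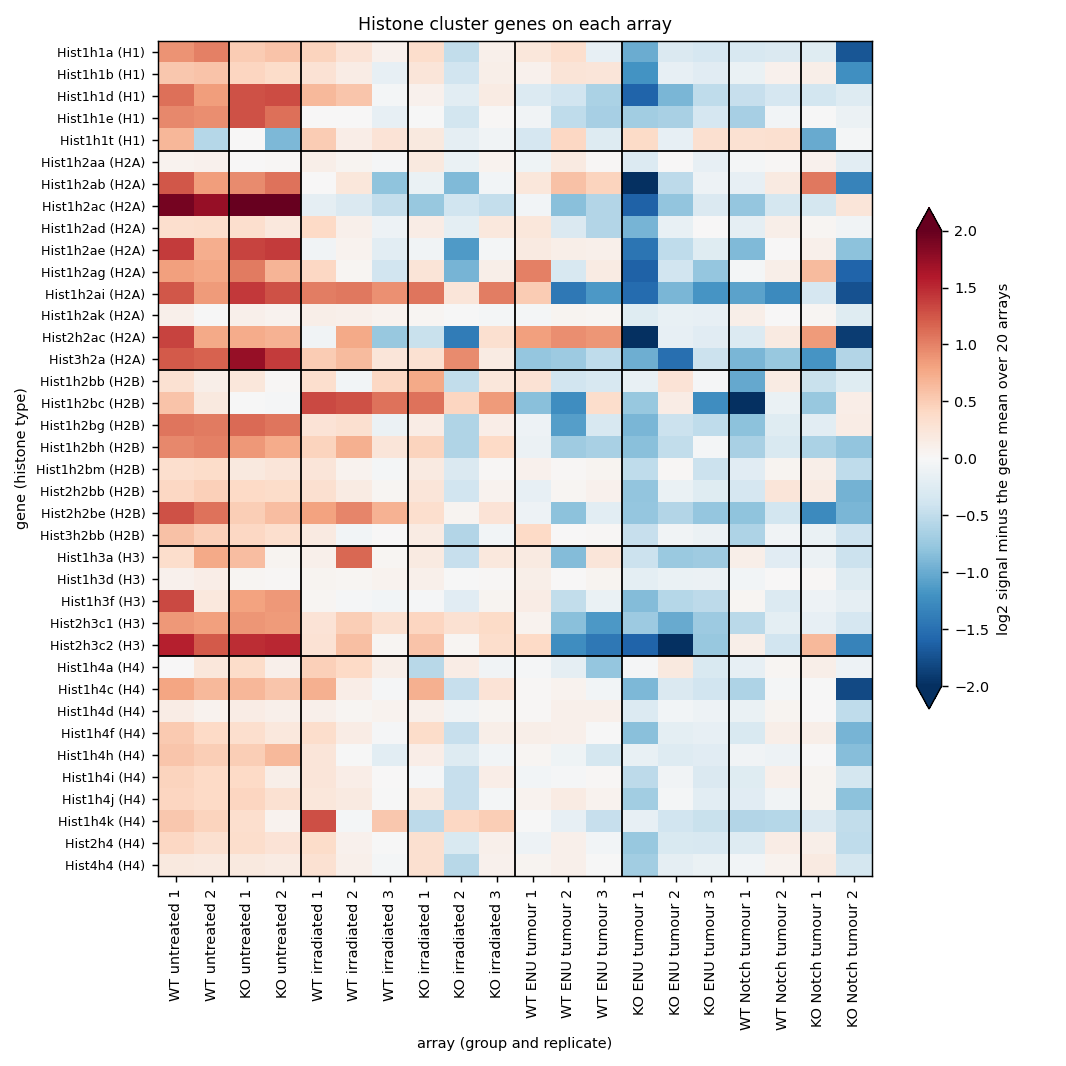
Heat map of the 38 histone cluster genes (rows, by histone type) on the 20 arrays (columns, by group), each value being log2 signal minus the gene's mean over the 20 arrays, with the colours ending at -2 and 2. The 4 untreated thymocyte arrays are red for nearly all genes (36 to 38 of 38 above their mean), while ENU tumour 1 labelled KO and KO Notch tumour 2 are mostly blue (1 and 3 of 38 above).

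For the series as a whole, array medians over genes lay between 8.32 and 8.44, and arrays of a group correlated at 0.87 to 0.988 over all probe sets. The 8 Gfi1 probe sets, numbered in the order of their IDs, were not low in the same places in the KO groups. In untreated KO against WT thymocytes, sets 2, 3 and 4 were lower (-6.31, -2.84 and -2.24) and the other 5 lay between -0.01 and 1.2. In irradiated KO against WT thymocytes, sets 4 to 8 were lower (-1.35 to -2.44) and sets 1, 2 and 3 higher (1.37, 1.23 and 0.98). Set 2, for example, was at 5.62 and 5.67 in untreated KO but at 12.72, 12.72 and 12.74 in irradiated KO thymocytes. The KO groups thus differ in which part of Gfi1 is low as well as in irradiation, and the labels do not say why. In KO Notch tumours set 2 was lower (-4.51), set 3 less so (-1.67), and the others lay between -0.52 and 0.31. In ENU tumours all 8 lay between -0.65 and 0.11, so the arrays labelled KO do not show the loss their label states, and directions drawn from them follow the label only. Of 15 thymocyte markers, all 15 lay above the filter on every array of the thymocyte groups and of the WT ENU tumours, and 10 did so in KO Notch tumours, where Rag1, Rag2, Dntt, Themis and Cd1d1 did not. B cell markers had a median of 12.89 on KO Notch tumour 2, against 8.17 on KO Notch tumour 1 and 8.13 to 8.21 in WT Notch tumours. The sources used here give no slide, scan or extraction batch.

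WT irradiated against WT untreated thymocytes asks what radiation changes where Gfi1 is intact. With no batch given, any other difference between these groups cannot be told apart from radiation. Of 34 histone genes tested, 15 fell and 1 rose (limma, adjusted p under 0.05), where 21.7% of the 12747 genes tested fell and 13% rose. The median histone difference was -0.33, against -0.02 over all genes. Every tested H1 gene fell (4 of 4), as did 5 of 9 H2A, 3 of 8 H2B, 2 of 3 H3 and 1 of 10 H4 genes, and the riser was the H2B gene Hist1h2bc. Under 13 alternatives of processing or arrays, the Hist1h1b call was lost in 7, while that of Hist1h1e was kept in all. The calls of Hist2h2ac and Hist3h2bb were lost in 6 each and that of Hist2h2be in 5. In the clusters, 9 of 25 tested Hist1 genes fell, 4 of 6 Hist2 and 2 of 2 Hist3, and the Hist4 gene did not pass.

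Of the 34 genes, Hist1h2ac, an H2A gene, had the largest difference. Its signal was 9.68 and 9.51 in untreated WT thymocytes and 7.59, 7.48 and 7.28 after irradiation. All irradiated arrays were below both untreated arrays, with a difference of -2.15 ± 0.12 (SE; limma adjusted p = 2.67e-09), a 4.44-fold fall. The gene lay below the 40th percentile on every irradiated and every tumour array. It therefore passed the filter through the untreated arrays alone and had to differ to be tested.

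Other H2A genes fell by less, and their gene values stayed above the filter. Hist1h2ae was at 10.79 and 10.11 before and at 9.31, 9.45 and 9.17 after irradiation (difference -1.14 ± 0.25, adjusted p = 0.00209). The probe sets of Hist1h2ae differed by -1.19, -0.24 and -1.51, at mean signals of 6.96, 13.86 and 7.2. The filter lay at 7.85 to 8.05 across arrays, so the sets with the larger falls had means below it. Hist1h2ab went from 10.62 and 10.22 to 9.38, 9.61 and 8.58 (-1.23 ± 0.25, adjusted p = 0.00139). In both genes the groups of arrays did not overlap. Hist2h2ac was more variable, at 10.15 and 9.56 before and 8.74, 9.56 and 8.05 after (-1.07 ± 0.39, adjusted p = 0.0414), and its groups met at 9.56. Hist3h2a, the H2A gene of the Hist3 cluster, moved from 9.81 and 9.76 to 9.09, 9.21 and 8.83 (-0.74 ± 0.18, adjusted p = 0.00501). By contrast Hist1h2ak, the H2A gene of highest array signal, had a difference of 0.05 ± 0.09, and Hist1h2aa, known from testis, one of -0.03 ± 0.11, and neither passed. The probe sets of Hist1h2ak, at mean signals of 13.57, 14.28 and 7.27, differed by 0.31, -0.02 and -0.51.

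Linker histones compact the DNA between nucleosomes. Hist1h1e was at 12.46 and 12.42 in untreated WT thymocytes and at 11.5, 11.5 and 11.33 after irradiation, a difference of -1.0 ± 0.12 (adjusted p = 1.04e-05) with no overlap. Hist1h1a, the H1 gene of highest signal, fell from 13.28 and 13.40 to 12.83, 12.66 and 12.47 (-0.69 ± 0.18, adjusted p = 0.00636). Hist1h1d differed by -0.59 ± 0.17 (adjusted p = 0.0124) and Hist1h1b by -0.45 ± 0.16 (adjusted p = 0.0332). The testis-type Hist1h1t was below the filter on all arrays.

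The H2B genes split. Hist1h2bg fell from 12.15 and 12.12 to 11.35, 11.39 and 10.96 (-0.90 ± 0.18, adjusted p = 0.00117), and all irradiated arrays were lower. Hist1h2bc did the reverse, with 10.75 and 10.38 before and 11.51, 11.46 and 11.27 after irradiation. That is a rise of 0.85 ± 0.16 (adjusted p = 0.000568), 1.80-fold, again without overlap. Hist2h2be, the other gene known for polyadenylated transcripts, fell instead, with a difference of -0.35 ± 0.12 (adjusted p = 0.0275) from 9.47 and 9.28 to 9.0, 9.17 and 8.89. Hist3h2bb, which RefSeq lists as a transcribed pseudogene, fell by 0.49 ± 0.16 on the log2 scale (adjusted p = 0.0251), while Hist1h2bm, the H2B gene of highest signal, was at -0.26 ± 0.13, which did not pass.

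H3 and H4 form the core tetramer of the nucleosome. The H3 gene Hist2h3c2 was at 9.69 and 9.36 before irradiation and at 8.43, 8.74 and 8.18 after it (-1.07 ± 0.16, adjusted p = 9.41e-05), and its cluster neighbour Hist2h3c1 fell by 0.48 ± 0.10 (adjusted p = 0.00153). Hist1h3d, the H3 gene of highest signal, differed by -0.05 ± 0.09 and did not pass. Of 10 H4 genes Hist1h4h alone fell (-0.51 ± 0.13, adjusted p = 0.00743), and the other 9 lay between -0.45 and 0.22. Hist1h4d, the H4 gene of highest signal, had a difference of -0.04 ± 0.10. Leaving out WT untreated array 1 reduced the calls to 8 falls and the rise of Hist1h2bc, and fitting all 20 arrays together, with the tumours' wider spread, left 2 falls, Hist1h2ac and Hist1h1e.

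**Figure D2:**
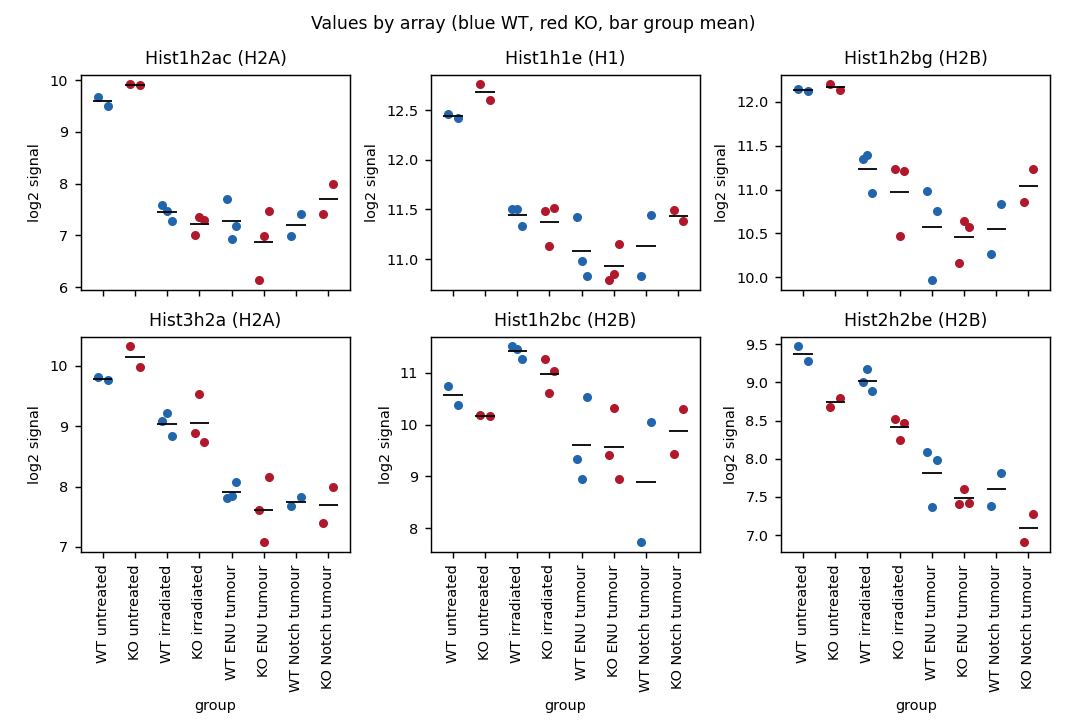
Log2 signal on each array (points, WT blue and KO red) with the group mean (bar) for 6 histone genes in the 8 groups; each panel has its own vertical range, which does not start at 0. Hist1h2ac, Hist1h1e, Hist1h2bg and Hist3h2a are highest in untreated thymocytes, Hist1h2bc has its highest group means after irradiation (arrays at 10.61 to 11.51), and Hist2h2be is lower on every KO than on every WT array in untreated and in irradiated thymocytes.

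The same contrast in KO mice, KO irradiated against KO untreated thymocytes, compares groups that also differ in which Gfi1 probe sets are low, and radiation and that difference cannot be told apart in it. Of the 34 genes, 18 fell and 1 rose, where 23.7% of all genes tested fell and 15.1% rose, and the median histone difference was -0.42 against -0.02 over all genes. By type 3 of 4 H1 genes fell, 6 of 9 H2A, 5 of 8 H2B, 2 of 3 H3 and 2 of 10 H4. Leaving out KO irradiated array 2, which stood apart, gave 13 falls and 1 rise, with a median of -0.27. Leaving out KO untreated array 1 or 2 gave 10 or 11 falls and 1 rise, and the fit of all 20 arrays 6 falls and no rise.

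Hist1h2ac again led, from 9.92 and 9.90 in untreated KO thymocytes to 7.01, 7.36 and 7.29 after irradiation. The difference of -2.69 ± 0.12 (adjusted p = 2.75e-10) is a 6.45-fold fall. Here too Hist1h2ac passed the filter through the untreated arrays alone and had to differ to be tested, so its p-value adds no support. Hist1h2ae fell from 10.73 and 10.79 to 9.32, 8.25 and 9.34 (-1.79 ± 0.25, adjusted p = 3.41e-05). Array 2 was the lowest for Hist1h2ae, as it was for most genes of the list. The probe sets of Hist1h2ae differed here by -1.63, -0.32 and -2.03, with -0.32 in the bright set. Hist1h1e went from 12.76 and 12.60 to 11.48, 11.13 and 11.51 (-1.31 ± 0.12, adjusted p = 4.99e-07), and Hist1h1d from 10.18 and 10.20 to 8.99, 8.69 and 9.06 (-1.28 ± 0.17, adjusted p = 1.87e-05). In the gene values of both linker histone genes all irradiated arrays were lower by more than a log2 unit than all untreated ones. Their probe sets were at -0.51 and -2.05 for Hist1h1d and at -2.16, -1.25 and -0.43 for Hist1h1e. Falls were also called for Hist1h2bg (-1.2 ± 0.18, adjusted p = 8.27e-05), Hist1h2ab (-1.38 ± 0.25, adjusted p = 0.000468), Hist2h3c2 (-1.18 ± 0.16, adjusted p = 3.04e-05) and Hist2h2ac (-1.23 ± 0.39, adjusted p = 0.0188). Of these, the Hist2h2ac call was lost under 5 of 13 alternatives and the Hist1h2bg call under none.

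Hist1h2bc rose in KO thymocytes as well, from 10.18 and 10.16 to 11.27, 10.61 and 11.03 (0.80 ± 0.16, adjusted p = 0.000749). Hist2h2be fell by 0.33 ± 0.12 (adjusted p = 0.0344), a call lost under 7 of 13 alternatives, including quantile normalization. The genes of highest signal stayed near their untreated values, with Hist1h4d at -0.11 ± 0.10, Hist1h3d at 0.00 ± 0.09, Hist1h2ak at -0.10 ± 0.09, Hist1h2bm at -0.24 ± 0.13 and the testis-type Hist1h2aa at 0.03 ± 0.11, none of which passed, while Hist1h1a fell by 0.56 ± 0.18 (adjusted p = 0.0191). Hist1h4d and Hist1h3d had mean signals of 14.31 and 14.13, where the highest value of all was 15.01. The dim set of Hist1h2ak, at a mean of 7.27, differed by -1.1 and its brighter sets by 0.26 and -0.1.

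The irradiation responses of WT and KO thymocytes share no array. Both come from the same fit and use the same estimate of each gene's spread, so their calls are not independent. Falls were called in both genotypes for 14 genes, 93.3% of the 15 in WT and 77.8% of the 18 in KO, and Hist1h2bc rose in both. Over all genes the corresponding shares were 73% and 66.7%. The 14 genes include Hist1h2ac, which had to differ to be tested. Hist1h1b was called in WT alone, and Hist1h2ai, Hist1h2bh, Hist1h4j and Hist2h2bb in KO alone. The difference between the responses was itself tested, with the same limit on the KO groups, and no histone gene passed (limma, smallest adjusted p = 0.139), where 1.88% of all genes did. At an unadjusted p under 0.05 there were 3 genes, each with the more negative response in KO: Hist1h2ac (-0.54 ± 0.17), Hist1h1d (-0.69 ± 0.24, adjusted p = 0.173) and Hist1h4a (-0.61 ± 0.24, adjusted p = 0.257). Hist1h4a was above the filter only on arrays of WT irradiated and KO untreated thymocytes. High signal in these groups makes this difference negative, so its p-value adds no support. The response was the more negative in KO for 25 of 34 genes, and for 13 of 34 once KO irradiated array 2 was left out, so that this direction rested on 1 array. Without WT irradiated array 3, Hist1h1d passed the test.

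**Figure D3:**
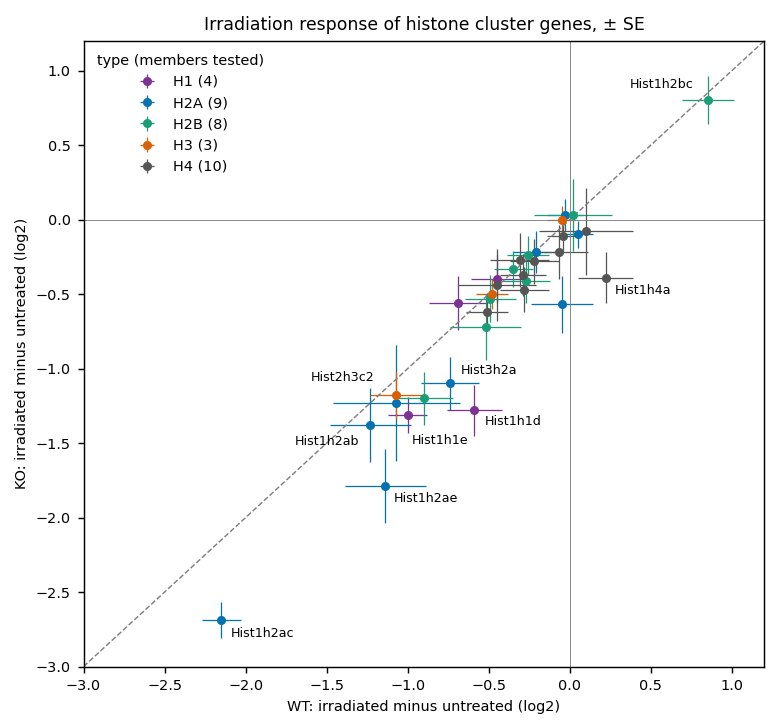
Irradiated minus untreated log2 difference of the 34 histone genes tested, in WT (horizontal axis) and in KO thymocytes (vertical axis), coloured by histone type, with bars of 1 SE and a dashed line of equal response. Hist1h2ac lies lowest in both (-2.15 and -2.69), Hist1h2bc alone lies clearly above 0 in both (0.85 and 0.80), and every H4 gene but Hist1h4h lies between -0.47 and 0.22 on both axes.

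The genes were also split by array signal, which describes probe sets and does not compare transcript amounts between genes. Whether signals near the top of the scale can show a fall in full was not tested. Of 9 tested genes with a mean signal of at least 12, 2 fell after irradiation in WT and the differences ran from -0.69 to 0.02. Of 25 genes under 12, 13 fell, with differences from -2.15 to 0.85. In KO the same split gave 2 of 9 (-0.56 to 0.03) and 16 of 25 (-2.69 to 0.80). By promoter letters, 6 of the 10 tested genes with the octamer fell in WT (median difference -0.82), and 7 of the 20 without it (median -0.30). In KO these counts were 7 of 10 (median -1.15) and 9 of 20 (median -0.42). In WT ENU tumours against thymocytes they were 3 of 10 (median -0.54) and 7 of 20 (median -0.61). The octamer lies in H2A and H2B windows only, and the genes without it include the H1, H3 and H4 genes, so these counts do not separate motif from histone type. Genes with it include Hist1h2ac, which had to differ to be tested, and Hist1h2bg, whose window overlaps that of Hist1h2ae.

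Genes that prepare and carry out DNA replication were called mainly as higher. Of 31 tested genes of an S phase list, 18 rose in WT and 0 fell after irradiation (median 0.46), among them Pole, the leading-strand polymerase subunit (1.13 ± 0.11, adjusted p = 8.22e-07), the licensing factor Cdc6 (1.19 ± 0.14, adjusted p = 8.56e-06), the cell cycle regulator E2f1 (0.96 ± 0.11) and DNA ligase Lig1 (0.80 ± 0.10). In KO 16 rose and 0 fell (median 0.36), and 10 rose once KO untreated array 1 was left out. Of 18 mitosis genes, 8 fell in each genotype, with Aurka at -1.31 ± 0.10 and Plk1 at -1.24 ± 0.11 in WT, while 2 rose in WT and 0 in KO. In the fit of all 20 arrays no S phase gene passed in either genotype, with the same medians.

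Genes that make and handle histones were mixed. Of 18 tested genes of histone transcription and 3′ end processing, 4 rose and 3 fell in WT. The cyclin Ccne2 rose by 0.70 ± 0.14, while Cpsf2 and Cpsf3, parts of the complex that cuts histone pre-mRNA, fell by 0.44 ± 0.11 and 0.40 ± 0.10, and so did Lsm10 of the U7 particle (-0.41 ± 0.12, adjusted p = 0.0157). In KO 2 rose and 2 fell, with Cpsf2 at -0.68 ± 0.11 and Ccne2 at 0.89 ± 0.14. Of 17 chaperone genes 4 rose and 0 fell in WT, led by Chaf1b (0.70 ± 0.12) and Chaf1a (0.51 ± 0.11) of the assembly factor CAF-1, and 3 rose and 2 fell in KO. Of 8 variant histones 2 rose and 3 fell in WT, with H1fx, a linker variant, up by 0.77 ± 0.11 (adjusted p = 4.86e-05) and H2afz down by 0.52 ± 0.13 (adjusted p = 0.00725). In KO 2 rose and 1 fell.

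Markers of other cells moved in the same comparisons. In WT, 8 of 9 granulocyte markers fell and 1 rose (their median level was 9.37 to 9.58 on untreated and 7.77 to 7.91 on irradiated arrays), with S100a8, S100a9, Ltf, Mmp8, Camp and Retnlg no longer above the filter on every irradiated array. In KO 1 of 9 fell and 2 rose (6.84 on both untreated arrays and 7.03 to 7.06 on irradiated ones). In both genotypes 8 of 9 tested macrophage and dendritic markers, 5 of 5 B cell markers and 8 of 15 thymocyte markers fell, and in KO 3 of 5 erythroid markers fell and 2 thymocyte markers rose. The macrophage and dendritic medians went from 9.08 to 9.21 in WT and 9.26 to 9.27 in KO before irradiation to 7.93 to 8.05 and 8.72 to 9.05 after it, the B cell medians from 8.25 to 8.69 and 9.02 to 9.10 to 7.84 to 7.90 and 8.16 to 8.41, and the thymocyte medians from 12.52 to 12.53 and 12.28 on both arrays to 11.93 to 12.09 and 11.92 to 11.98. Their part in the histone differences was not tested, and in bulk RNA fewer cells of a type and less RNA per cell cannot be told apart.

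The effect of losing Gfi1 in thymocytes was compared next, without and with irradiation. Untreated, 1 of 34 histone genes fell and 0 rose, where 5.49% of all genes tested fell and 6.79% rose, and the median histone difference was -0.06. The gene was Hist2h2be, at 9.47 and 9.28 in WT and at 8.68 and 8.80 in KO. Both KO arrays lay below both WT arrays, a difference of -0.63 ± 0.13 (adjusted p = 0.00256) or 1.55-fold. The call was lost without WT untreated array 1, without KO untreated array 1 and in the fit of all 20 arrays. Of the genes of highest signal, Hist1h1a differed by -0.41 ± 0.19 (adjusted p = 0.204), Hist1h2ak by 0.05 ± 0.10, Hist1h2bm by -0.13 ± 0.14, Hist1h3d by -0.08 ± 0.10 and Hist1h4d by 0.03 ± 0.11. Hist1h2bc was at -0.40 ± 0.17 (adjusted p = 0.164) and Hist1h2aa at -0.07 ± 0.12, and neither passed.

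After irradiation 3 of 34 fell in KO against WT and 0 rose, where 6.81% of all genes fell and 8.12% rose. Hist2h2be was among them again, at 9.0, 9.17 and 8.89 in WT and 8.52, 8.25 and 8.47 in KO. The groups did not overlap (-0.61 ± 0.10, adjusted p = 0.000458), and the call was lost only in the fit of all 20 arrays. The irradiated and untreated comparisons share no array but use the same estimate of each gene's spread. The difference between the irradiation responses of Hist2h2be was 0.02 ± 0.16 (adjusted p = 0.98). Hist1h2bc fell by 0.44 ± 0.14 (adjusted p = 0.042), from 11.51, 11.46 and 11.27 to 11.27, 10.61 and 11.03, groups that meet at 11.27. Hist1h4a fell by 0.49 ± 0.15 (adjusted p = 0.0353), from 8.10, 8.02 and 7.73 to 7.07, 7.77 and 7.55, with overlap and with all irradiated KO arrays under the filter. It lay above the filter on 2 WT irradiated arrays and on 1 KO untreated array. It was thus tested only through the group where it was high, and its p-value adds no support. Each of these 2 calls was lost under 7 of 14 alternatives, including quantile normalization.

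Across the list, 31 of 34 differences were negative in irradiated KO against WT thymocytes, with a median of -0.17 against -0.03 over all genes. Without KO irradiated array 2, 15 of 34 were negative and the median was 0.01, so the overall shift rested on that array, while Hist2h2be was called without it. The genes of highest signal did not pass, with Hist1h1a at -0.28 ± 0.16, Hist1h2ak at -0.10 ± 0.08, Hist1h2bm at -0.12 ± 0.11, Hist1h3d at -0.02 ± 0.08 and Hist1h4d at -0.05 ± 0.09, and nor did Hist1h2aa (-0.01 ± 0.10). In the same comparison 11 of 31 S phase genes fell and 0 rose, including Tyms (-0.62 ± 0.10) and Tk1 (-0.49 ± 0.11), and 4 of 18 mitosis genes fell. Untreated, 4 of 31 S phase genes fell (Tk1, Tyms, Prim1 and E2f2). The variant H1fx was lower in KO both untreated (-0.85 ± 0.12, adjusted p = 8.82e-05) and irradiated (-1.21 ± 0.10, adjusted p = 1.01e-07). Of the other genes of histone supply, Cdk2 and Ccne2 fell in both settings, Ccne1 and Cstf2 in irradiated KO thymocytes, and 2 of 17 chaperones, Nap1l1 and Asf1b, in irradiated ones. Granulocyte markers were lower in KO untreated (8 of 9) and irradiated (7 of 9) thymocytes, macrophage and dendritic markers were higher (6 of 9 and 7 of 9) and so were erythroid markers (3 of 5 and 2 of 5), and their part in these differences was not tested.

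WT ENU tumours against WT untreated thymocytes asks how tumours differ from thymocytes. The tumour mice also carried floxed Gfi1 alleles and had been given ENU and pIpC, and no batch is given. Differences due to these cannot be told apart from those between tumour and thymocytes. Of 34 histone genes 11 fell and 0 rose, where 10.2% of the 13520 genes tested fell and 9.87% rose. With arrays centred on their median over genes, 1606 genes of the table fell and 1022 rose, in place of 1378 and 1335, and the histone count was the same. All 34 differences were negative (also under quantile normalization and centring), with a median of -0.59 against 0.01 over all genes. By type 2 of 4 H1 genes fell, 3 of 9 H2A, 3 of 8 H2B, 2 of 3 H3 and 1 of 10 H4. The irradiation contrast in WT uses the same untreated arrays, so the lists of genes that fell in the 2 comparisons are not independent.

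Hist1h2ac was at 7.71, 6.93 and 7.18 in the tumours, against 9.68 and 9.51 in thymocytes (-2.32 ± 0.31, adjusted p = 0.000237), and was below the filter on every tumour array. It entered this fit through the untreated arrays alone and had to differ to be tested. Hist3h2a was at 7.81, 7.85 and 8.08 against 9.81 and 9.76 (-1.87 ± 0.28, adjusted p = 0.000549). Hist2h2be was at 8.09, 7.37 and 7.98 against 9.47 and 9.28 (-1.56 ± 0.20, adjusted p = 0.000176). For these 3 genes every tumour array lay more than a log2 unit below every thymocyte array. Hist3h2a lay above the filter on 1 of the 3 tumour arrays and Hist2h2be on 2, so their falls also end near the filter. Hist1h1e was at 11.42, 10.98 and 10.83 against 12.46 and 12.42 (-1.36 ± 0.20, adjusted p = 0.000392). Falls were called as well for Hist2h3c1 (-1.48 ± 0.24, adjusted p = 0.000961), Hist1h2bg (-1.57 ± 0.29, adjusted p = 0.00222), Hist1h2bh (-1.47 ± 0.29, adjusted p = 0.00316) and Hist1h1d (-1.40 ± 0.26, adjusted p = 0.00208).

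Hist2h3c2 and Hist1h2ai also fell, at -2.14 ± 0.55 (adjusted p = 0.0143) and -1.74 ± 0.48 (adjusted p = 0.0188), with the tumours far apart. Hist2h3c2 was at 8.54 in tumour 1 but 6.89 and 6.71 in the others, and Hist1h2ai at 8.47 but 6.53 and 6.82. Tumour 1 was thus the nearest to thymocytes in both. Each of these genes lay above the filter on 1 of the 3 tumour arrays. Hist1h4h fell by 0.66 ± 0.21 (adjusted p = 0.0345). Calls numbered 8 without either WT untreated array or without tumour 3, and 15 when the 5 arrays of the comparison were fitted alone.

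Hist1h2bc, which rose after irradiation, was at -0.96 ± 0.57 (adjusted p = 0.271), which did not pass, with tumours at 9.34, 8.94 and 10.54. The genes of highest signal again lay near the thymocyte level, with Hist1h4d at -0.03 ± 0.13, Hist1h3d at -0.05 ± 0.10, Hist1h2ak at -0.03 ± 0.10 and Hist1h2bm at -0.29 ± 0.19, while Hist1h1a was at -0.82 ± 0.34, and none passed. Hist1h2aa was at -0.05 ± 0.13 and did not pass. Of 9 genes with a mean signal of at least 12, 0 fell, and of 25 under 12, 11 fell.

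Cell cycle genes were called mainly as higher in the tumours. Of 31 S phase genes 10 rose and 1 fell (median 0.82), including Pole (1.97 ± 0.41) and the kinase of thymidine salvage Tk1 (1.09 ± 0.20), and 9 of 18 mitosis genes rose (median 0.95), including the proliferation marker Mki67 (1.31 ± 0.16, adjusted p = 0.00016). S phase calls were fewer without WT ENU tumour 2 or 3 (6 and 3 rises) or without WT untreated 1 or 2 (2 each), which also reduced mitosis rises to 3 each. In the 5 arrays alone 24 S phase and 16 mitosis genes rose. Of 17 chaperone genes 3 rose (Chaf1a, Ipo4 and Rbbp7), and in the processing list Pou2f1, which encodes the octamer-binding factor Oct-1, rose by 0.59 ± 0.15 (adjusted p = 0.0153) and Lsm10 fell by 0.63 ± 0.15. Of 9 variant histones 0 passed (limma), with 1 at an unadjusted p under 0.05. In this comparison 7 of 9 granulocyte markers fell, from medians of 9.37 to 9.58 to 6.80 to 7.18, 3 of 15 thymocyte markers fell, from 12.52 to 12.53 to 11.07 to 11.76, and 2 of 10 macrophage and dendritic markers rose; their part was not tested.

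**Figure D4:**
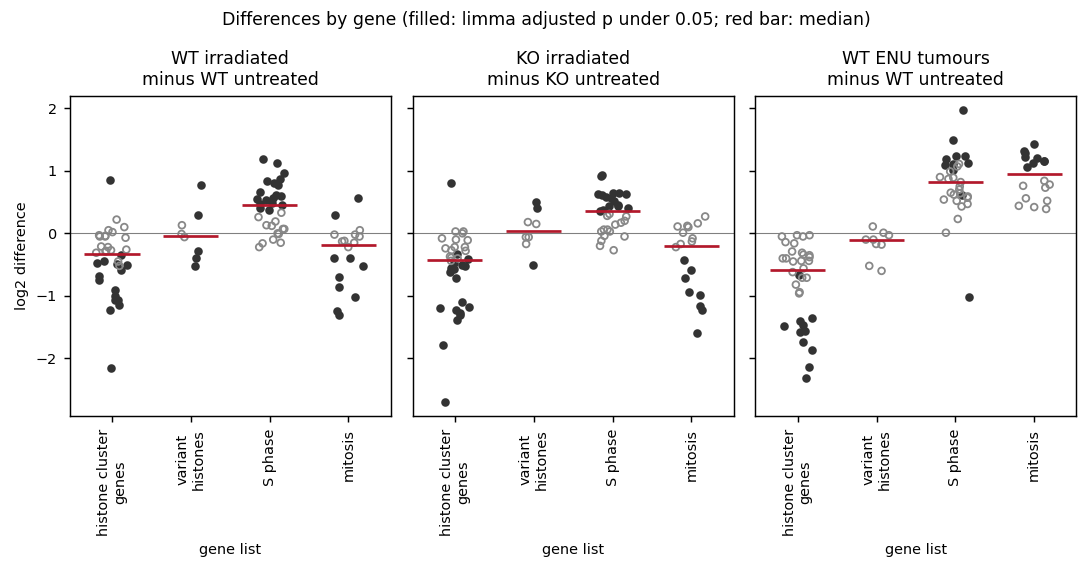
Log2 difference per gene (points; filled where the limma adjusted p was under 0.05) and median (red bar) for histone cluster genes, variant histones, S phase genes and mitosis genes in 3 comparisons. Histone cluster medians are below 0 in all 3 (-0.33, -0.42 and -0.59) and S phase medians above 0 (0.46, 0.36 and 0.82), while mitosis medians are below 0 after irradiation and above 0 in tumours.

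KO against WT ENU tumours, by label, gave no called histone gene, as 0% of the 13025 genes tested passed (limma, smallest histone adjusted p = 0.363). At an unadjusted p under 0.05 there were 2, Hist2h2ac (-2.02 ± 0.86) and Hist1h2ae (-0.87 ± 0.38). Hist2h2ac was at 9.63, 9.74 and 9.69 in WT and 5.78, 8.64 and 8.58 in tumours labelled KO, so every array labelled KO was lower and array 1 lay far below the other two. Of 31 differences 29 were negative, and the median was -0.34 against -0.07 over all genes. In 15 of 31 genes every array labelled KO was below every WT array, where the same held for 19% of all genes. Without ENU tumour 1 labelled KO 26 of 31 were negative, with a median of -0.22.

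In the same tumours S phase genes had a median of -0.76 with all 31 negative, and mitosis genes one of -0.60 with all 18 negative, and none of either passed (limma), with 8 and 5 at an unadjusted p under 0.05. The median of S phase genes on ENU tumour 1 labelled KO was -0.85, against 0.13 and 0.23 on the other arrays of its group. B cell markers had medians of 7.85 to 10.79 and macrophage markers of 9.57 to 11.39 in tumours labelled KO, against 7.65 to 8.75 and 9.14 to 9.41 in WT, and their part was not tested. The genes of highest signal differed by -0.67 (Hist1h1a) to -0.20 (Hist1h2ak), and none passed, and nor did Hist2h2be (-0.34 ± 0.22), Hist1h2bc (-0.05 ± 0.66) or Hist1h2aa (-0.17 ± 0.14).

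KO against WT Notch tumours likewise gave 0 of 31 histone genes, where 0.0154% of all genes passed, and 0 had an unadjusted p under 0.05 (limma). The smallest p belonged to Hist2h2be, at 7.38 and 7.82 in WT and 6.91 and 7.28 in KO (-0.51 ± 0.27, adjusted p = 0.807), which is the direction seen in thymocytes without passing here. Hist1h2bc differed by 0.98 ± 0.81, with WT arrays at 7.73 and 10.05, and the genes of highest signal by -0.67 (Hist1h1a) to -0.09 (Hist1h3d). The result depended on which KO array was kept. With array 1 left out, Hist1h1a and Hist1h4c fell, and with array 2 left out 5 of 31 differences were negative and the median moved from -0.11 to 0.17. KO Notch tumour 2 was low in Hist1h4c (9.35, against 11.14 on KO array 1 and 10.54 and 11.12 in WT) and in Hist1h1a (10.68, against 12.14 and 12.06 and 12.10). Its S phase median was -0.93 and its mitosis median -0.71, against 0.47 and 0.54 on KO array 1. The same array had a B cell marker median of 12.89 (8.17 on KO array 1), a macrophage and dendritic median of 10.76 (9.07) and a thymocyte median of 8.77 (11.51). In KO against WT Notch tumours all 5 B cell markers (median 1.98) and all 10 macrophage and dendritic markers (median 1.14) had positive differences and 14 of 15 thymocyte markers negative ones (median -0.76), none of which passed (limma), with 0, 3 and 5 at an unadjusted p under 0.05. The part of these cells in the histone values was not tested.

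WT Notch against WT ENU tumours asks what the Notch transgene adds. It gave 0 of 31 histone genes, where 0.023% of all genes passed, and 0 had an unadjusted p under 0.05 (limma, smallest adjusted p = 0.677). The differences ran from -0.93 (Hist2h2ac) to 0.63 (Hist2h3c2), with a median of -0.11 against -0.04 over all genes. Hist2h2be was at -0.21 ± 0.25, Hist1h2bc at -0.72 ± 0.74 and the genes of highest signal at -0.44 (Hist1h1a) to 0.05 (Hist1h2ak).

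Histone genes come in near-identical copies, so the single-gene values carry some uncertainty about which copy was measured. Of the 12 genes with several probe sets, the probe sets of 9 were all negative in WT irradiated against untreated thymocytes, and those of Hist1h1t, Hist1h2ak and Hist1h4i disagreed in sign. In KO, 9 were all negative and Hist1h2ak and Hist1h4i disagreed, and in WT ENU tumours against thymocytes 10 were all negative. Sets of the same sign could differ in size, a spread that the SE of a gene does not hold. After irradiation in WT those of Hist1h2bg were at -0.14 and -1.67, and those of Hist1h1e at -1.58, -0.88 and -0.37. Those of Hist2h2bb were closer, at -0.29, -0.31 and -0.22. In the tumours those of Hist1h2bh were at -2.69 (mean signal 6.68) and -0.26 (12.24).

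A further 34 probe sets name several histone cluster genes and nothing else, and 31 remain once repeated values are left out. They belong to no single gene and give a second, untested view. After irradiation in WT all 31 were negative, but the 10 H3 sets lay between -0.06 and -0.01, the 8 H2A sets between -0.11 and -0.07 and the 4 H4 sets between -0.11 and -0.07. Their mean signals were 14.39 to 14.51 (H3), 13.95 to 14.32 (H2A) and 14.18 to 14.35 (H4). The highest value of all was 15.01, and whether sets so bright can show a fall in full was not tested. Sets naming H2B genes, or H2A and H3 genes together, reached -0.43 and -0.38. The largest difference was that of the set that names Hist1h1e and Hist1h2be, at -1.89 in WT, -2.29 in KO and -1.81 in WT ENU tumours against untreated thymocytes. Its mean signal was 8.4. In the tumours the H3 and H4 sets again lay close to 0, between -0.15 and -0.02, while 1 set of H2A and H3 genes reached -1.55.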

How the data were processed

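Expression was measured on Affymetrix mouse whole-transcript arrays from total RNA amplified with a NuGEN kit and labelled with biotin, per the labels' protocols. The deposited table holds 182058 probe sets on 20 arrays. The authors' values run from 3.37 to 15.01 and were taken as log2 signal. The sources used here do not give the log base, background correction, normalization or summary, so a fold assumes base 2. Probe sets naming 1 gene in the platform annotation were used. After centring each on its 20-array mean, the median over a gene's probe sets was its value, to which the average of their means was restored. A gene entered a fit if above the 40th percentile of the genes on at least 2 arrays. Thymocyte contrasts used 10 thymocyte arrays, tumour contrasts 10 tumour arrays, and tumours against thymocytes all 20, with limma 3.58.1 (lmFit, eBayes) in R 4.3.3, Benjamini-Hochberg adjustment over all genes tested and a threshold of 0.05; a ± b is a log2 difference with its SE. The few arrays per group limit the precision.

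Members and lists were chosen with earlier results of these data known. Values are given for up to 8 called rises and 8 falls per comparison, the member of each type with the highest mean signal, members known for polyadenylated or testis transcripts, and up to 4 genes of each other list with the smallest p; further members were named after their values were seen. Hist1h1c and Hist1h2ba are in that rule but no single-gene probe set names them. All 38 symbols were matched to RefSeq (GRCm38.p6), most through synonyms. Scripts were tested on simulated data. Files were read with data.table (version 1.17.8) and pandas 2.3.3, and figures drawn with matplotlib 3.10.9 in Python 3.11.15.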

Additional observations from a re-analysis of the deposited data

Results flagged for a closer look

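Hist1h4k, an H4 gene, had differences of opposite sign in 2 comparisons of KO with WT, with no overlap of arrays in either. In untreated thymocytes it was at 10.37 and 10.27 in WT and 10.17 and 9.90 in KO, a difference of -0.29 ± 0.32 (limma adjusted p = 0.692). In Notch tumours it was at 9.24 and 9.26 in WT and 9.54 and 9.34 in KO, a difference of 0.19 ± 0.19 (limma adjusted p = 0.892). Neither passed, and the difference between them was not tested. Arrays also did not overlap for many other histone genes in untreated thymocytes, where 14 of 34 tested were lower and 5 higher in this way. In Notch tumours 1 of 31 was lower and 2 higher. The shares over all genes were not counted, so these counts cannot say whether histone genes differ from other genes.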

How the results depend on the processing

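The alternatives were quantile normalization, arrays centred on their median over genes, the mean of probe sets, no filter on dim genes, eBayes with a trend, repeated probe sets left out, a replicate block, other arrays in the fit, and leaving out each array; none turned the direction of a called gene. With all 20 arrays in one fit, called histone genes went from 1 to 0 (KO against WT, untreated), from 3 to 0 (irradiated), from 16 to 2 (irradiation in WT) and from 19 to 6 (in KO), and the genes called in all to 115, 148, 548, 772 and 6 (difference of responses), and 679, 184 and 270 in the 3 tumour comparisons. KO against WT irradiated gave 1 under quantile normalization and 1 with no filter. Leaving out an array gave 0 to 1 (KO against WT, untreated), 1 to 4 (irradiated), 9 to 14 (irradiation in WT), 11 to 25 (in KO), 0 to 1 (difference of responses), 0 to 2 (Notch tumours) and 8 to 12 (ENU tumours against thymocytes), and moved the median of KO against WT Notch tumours to between -0.32 and 0.17. The cause was not tested. Without single untreated arrays, genes called in all were 716 to 859 of 1566 (KO against WT), 2111 in WT without array 1 and 2678 or 2875 in KO without array 1 or 2 (irradiation), 61 to 92 of 240 (difference of responses) and 726 or 909 of 2713 (tumours against thymocytes); without KO Notch tumour 1 they were 1066 in place of 2, without WT ENU tumour 3 they were 4 in place of 0 (ENU tumours), and the replicate block gave 0 and 1 in place of 2 and 3 in the Notch comparisons. Replicate numbers were not shown to pair the arrays: same-numbered deviations correlated at -0.342 to 0.22 in irradiated KO and WT thymocytes, where 0 of 3 arrays correlated best with their own number. The replicate block gave 1, 3, 15, 19 and 0 called histone genes in the thymocyte comparisons, 0 in each tumour comparison and 11 for tumours against thymocytes. Of single genes, Hist1h1e was called under all 13 alternatives of each irradiation comparison and of tumours against thymocytes. Hist1h2ac was too, but it entered each fit only through the untreated arrays, where it is high, so this says nothing of its stability.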
